A study of Rattus norvegicus with 12 samples.

Results

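The mammary glands of normally nourished female Wistar rats were compared at day 28 and day 21 of life. Pups were suckled until day 21, so that the comparison spans the days after weaning. Total RNA of the lumbar gland was measured on 1 array per rat. The comparison holds 6 of the 12 arrays of the series, 3 at day 21 (rats NP4a, NP5a and NP6a) and 3 at day 28 (rats NP4f, NP5f and NP6f), chosen by the diet and the day in their labels. All 6 rats were offspring of dams given a normal protein diet (NP) with 17% protein in pregnancy, in litters cut to 6 females. Standard chow was given during lactation and, to the day 28 rats, after weaning. The other 6 arrays came from offspring of dams given 8.8% protein (LP) at the same days and served as a second set of rats, with 3 per day. The lumbar gland was taken whole, after the lymph nodes that could be seen had been cut out, so that fat, ducts, stroma, vessels, nerves and blood were measured together. In such bulk tissue, fewer cells of a type and less RNA per cell cannot be told apart.

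All day 21 arrays lay on 1 slide and all day 28 arrays on another. Slide and day therefore cannot be told apart in any result given here. Signals are given as log2 values relative to the 75th percentile of the gene spots of the same array, and differences as day 28 minus day 21 on that log2 scale. Between 75.9% and 79.6% of the gene spots of the NP arrays were well above background. Control RNAs added in fixed amounts, of which 8 were above background, were 0.14 to 0.26 higher at day 28 on this scale. The day 28 array of rat NP4f stood apart. Its median correlation with the other NP arrays was 0.978, against 0.985 to 0.99 for the rest, and it lay at 71.96 on the first principal component (38.1% of the variance), against -29.76 to 0.31.

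In the days around weaning the rat gland is a small tree of ducts growing into a fat pad, and the young rat passes from milk, which is rich in fat, to chow, which is rich in starch. Genes of fetal growth, many of them imprinted so that only the copy from 1 parent is read, are known to be turned down in most tissues after birth. Over the same weeks the blood of young rats loses its many reticulocytes, the immature red cells that still carry RNA, and fat cells regain the enzymes that make fatty acids from sugar.

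Of 22654 probes tested with limma on the 6 arrays, 0 passed an adjusted p of 0.05, and the lowest adjusted p was 0.176. At an unadjusted p under 0.05 there were 2349 probes (10.4%), of which 65.3% were higher at day 28, and 54.4% with quantile normalization. Among the 14925 named genes, each by its brightest probe, 694 (4.65%) were higher and 553 (3.71%) lower at that limit, against 574 and 712 with quantile normalization. A difference of at least 2-fold with an unadjusted p under 0.05, the limits the study used for other comparisons, was met by 66 genes (0.442%) in the higher and 68 (0.456%) in the lower direction. Counted by the probe with the lowest p, these were 150 genes, 71 higher and 79 lower. Leaving out the array of NP5a gave 269 and leaving out that of NP6f gave 280. All 3 day 28 arrays were above all 3 day 21 arrays in 1386 genes (9.29%) and below them in 1144 (7.66%). In a fit of the same contrast over all 12 arrays, which shares the spread of the LP rats, 64 probes (0.283%) passed an adjusted p of 0.05. Of these, 48 were higher and 16 lower at day 28. The SE and p given for LP rats come from this 12-array fit too, so that they share the spread of the NP rats. With 3 rats a day, an exact two-sided permutation test cannot give a p below 0.1 for a single gene.

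**Figure D1:**
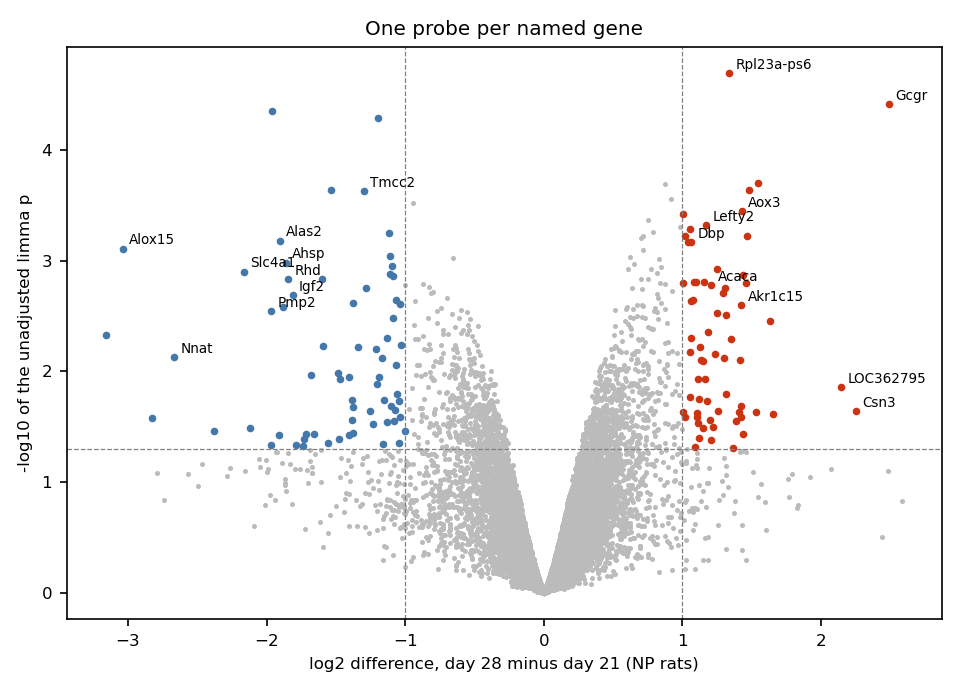
Each point is 1 named gene by its brightest probe, with the log2 difference between day 28 and day 21 in NP rats on the x axis and -log10 of the unadjusted limma p on the y axis. Coloured points are the 66 higher (red) and 68 lower (blue) genes at least 2-fold different with an unadjusted p under 0.05, and dashed lines mark these limits; Alox15 lies farthest left among the labelled genes and Gcgr farthest right.

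Red cell genes were lower at day 28, and the median of their list was lower in each NP rat of that day than in any of day 21 (the plot of gene lists by array). Red cells build haemoglobin under the control of GATA and CACCC-binding factors, and the promoters of red cell genes are printed here because most genes of this list were lower on all 3 arrays of day 28. The bases before the start site are shown 5′ to 3′ from RefSeq (GRCr8), with the GATA motif (GATAA) and the CACCC motif (CCNCNCCC) of either strand in capitals.
Alas2 (chrX:22895200-22895449, plus strand): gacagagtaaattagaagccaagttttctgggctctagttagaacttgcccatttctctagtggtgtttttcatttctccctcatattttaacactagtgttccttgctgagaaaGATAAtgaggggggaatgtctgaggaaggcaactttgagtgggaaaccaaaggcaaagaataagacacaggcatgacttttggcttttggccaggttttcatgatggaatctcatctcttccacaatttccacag
Rhd (chr5:152370950-152371199, plus strand): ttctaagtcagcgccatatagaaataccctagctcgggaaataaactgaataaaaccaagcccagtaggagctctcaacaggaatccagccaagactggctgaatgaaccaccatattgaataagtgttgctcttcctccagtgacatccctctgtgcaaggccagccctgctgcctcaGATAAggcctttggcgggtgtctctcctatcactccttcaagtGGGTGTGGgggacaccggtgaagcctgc
Hbb (chr1:167663722-167663971, minus strand): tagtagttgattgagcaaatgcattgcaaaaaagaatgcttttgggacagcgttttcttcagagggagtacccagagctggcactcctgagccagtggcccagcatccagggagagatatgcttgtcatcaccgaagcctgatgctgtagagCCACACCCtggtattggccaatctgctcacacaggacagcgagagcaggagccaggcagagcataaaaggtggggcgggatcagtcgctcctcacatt
Epb42 (chr3:128451684-128451933, minus strand): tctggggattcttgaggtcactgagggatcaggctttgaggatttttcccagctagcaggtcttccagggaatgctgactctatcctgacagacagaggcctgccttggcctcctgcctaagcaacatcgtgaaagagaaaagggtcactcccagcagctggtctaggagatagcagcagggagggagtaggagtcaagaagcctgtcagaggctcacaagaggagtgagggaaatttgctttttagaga
In these windows of 250 bases the GATA motif was found in Alas2, 135 bases before the start, and in Rhd, 71 bases before it. The CACCC motif was found in Rhd and Hbb, and neither in Epb42. Of 33469 rat promoters of that length, 23.5% held the GATA motif and 42.8% the CACCC motif.

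Of the 8 red cell genes tested, out of 11 in the list, 6 were lower at an unadjusted p under 0.05 and 6 lay below all day 21 arrays, against 3.71% and 7.66% of all named genes. The median difference of the list was -1.39, against 0.02 over all named genes. It was -0.71 with normexp background correction and -0.91 over genes well above background on all 6 arrays. With either, 5 genes were lower at the unadjusted limit. Alas2 (probe at chrX:39810353-39810412 of rn4), the first enzyme of haem synthesis in red cells, read 1.63, 0.72 and 1.19 in NP4a, NP5a and NP6a at day 21, and -0.95, -0.20 and -1.02 in NP4f, NP5f and NP6f at day 28. The days did not overlap, and the difference was -1.90 ± 0.31 (SE; adjusted p = 0.192 in the 6-array fit and 0.0348 in the 12-array fit). Slc4a1, the anion exchanger band 3 of the red cell membrane, read -1.44, -2.32 and -2.37 at day 21 and -4.93, -3.65 and -4.05 at day 28, a difference of -2.16 ± 0.40 (adjusted p = 0.225 and 0.0425 in the same fits). Ahsp, the chaperone of free alpha globin, differed by -1.86 ± 0.33 (adjusted p = 0.222 and 0.0449). Epb42, a protein of the red cell skeleton, was well above background on all 3 arrays of day 21 and on none of day 28, at least 1.1-fold lower. It is among the 6 lower genes and passed the filter only through day 21, at which it was high.

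Among the globins the differences ran from under 1 to over 1 on the log2 scale. Hbb, the beta globin, was 6.67, 6.31 and 6.30 at day 21 and 5.72, 6.29 and 5.81 at day 28, a difference of -0.48 ± 0.20 by its brightest probe (adjusted p = 0.476), while another Hbb probe, at -1.60, passed in the 12-array fit (adjusted p = 0.0348). Hbb-b1 differed by -0.91 ± 0.22 and Hba-a1, an alpha globin, by -0.38 ± 0.22 (adjusted p = 0.327 and 0.575). Hba-a3 differed by -1.59 ± 0.39 and Hbe2, an embryonic-type beta globin, by -1.09 ± 0.20, with day 28 values between 3.97 and 4.66. Neither Hba-a3 nor Hbe2 is in the list, and both were named after their values were seen. Globin genes are near-identical copies, and how the probes divide their signal is uncertain. Summed over the list, the signal was 282.7 to 375.7 times the 75th percentile at day 21 and 180.6 to 272.7 times at day 28.

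The next genes also belong to no list and were named after their values were seen. Alox15 (probe at chr10:57186202-57186261 of rn4), the 15-lipoxygenase that reticulocytes make, and that eosinophils and macrophages make too, read 0.48, -0.58 and -0.30 at day 21 and -4.06, -2.18 and -3.28 at day 28. Its difference, -3.04 ± 0.51, was an 8.22-fold lower signal (adjusted p = 0.207 in the 6-array and 0.0332 in the 12-array fit). Rhd, a Rhesus blood group protein, differed by -1.84 ± 0.35 and Tmcc2, a transmembrane protein, by -1.30 ± 0.18 (adjusted p = 0.238 and 0.176, and 0.0425 and 0.0444 over 12 arrays). Hemgn, a nuclear protein of blood-forming cells, differed by -1.41 ± 0.40 (adjusted p = 0.38). Gata1, the transcription factor of red cell precursors, was near background, well above it on all 3 arrays at day 21 and on 1 at day 28. In LP rats, the 8 listed genes had a median difference of -1.06. With all 12 arrays in the fit, 7 were lower in LP rats and 6 in NP rats at an unadjusted p under 0.05.

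**Figure D2:**
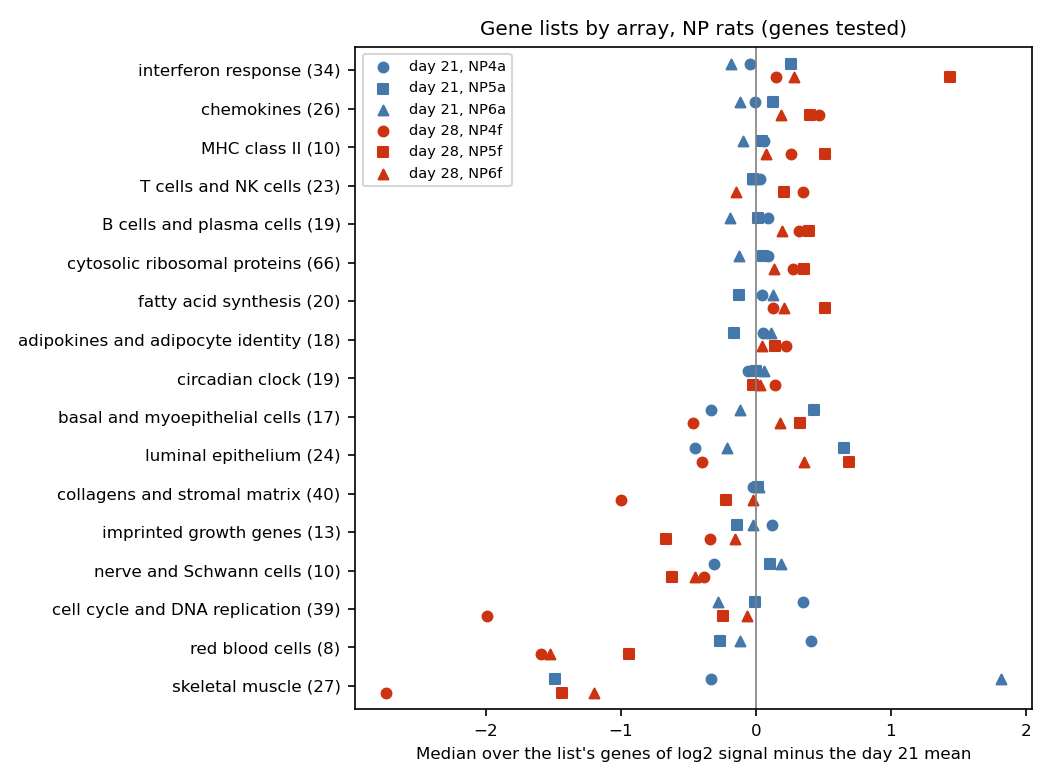
For 17 gene lists (number of tested genes in brackets), each point is the median over the list's genes, in 1 array of an NP rat, of the log2 signal minus the day 21 mean; blue points are day 21, red points day 28, and shapes mark the rats. Red blood cell genes sit at -1.59 to -0.94 on the 3 day 28 arrays, the cell cycle list rests on NP4f at -1.99, and the interferon list is highest in NP5f at 1.44.

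Among imprinted growth genes, Igf2, H19 and Nnat were more than 2-fold lower at day 28. Igf2 (probe at chr1:202906641-202906700 of rn4), the fetal insulin-like growth factor, which is read from the paternal copy, gave 3.17, 3.05 and 3.54 at day 21 and 1.28, 0.81 and 2.23 at day 28. The days did not overlap, and the difference was -1.81 ± 0.36 (adjusted p = 0.265 over 6 arrays and 0.102 over 12). H19, the untranslated RNA read from the maternal copy beside Igf2, gave 5.52, 5.29 and 5.47 and then 3.11, 4.64 and 4.83, a difference of -1.24 ± 0.45 (adjusted p = 0.448). Nnat, neuronatin, an imprinted gene of brain and fat, gave 6.16, 5.85 and 5.97 and then 1.73, 3.58 and 4.68, a difference of -2.67 ± 0.69 (adjusted p = 0.358). For H19 and Nnat the lowest array was NP4f, and without it the differences were -0.69 and -1.87.

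Of the 13 tested genes of the list, 4 were lower and 0 higher at an unadjusted p under 0.05, against 3.71% and 4.65% of named genes, with a median difference of -0.39. The count was 2 without NP4a or without NP6a and 7 without NP6f. Ndn, necdin, was the fourth, at -0.59 ± 0.22 (adjusted p = 0.456). Mest gave -1.24 ± 0.67 with NP4f at 0.65 and NP6f, at 3.43, within the day 21 range of 3.02 to 3.69. Plagl1 differed by -0.29 ± 0.21, and Dlk1, the preadipocyte factor, was near background with a difference of 0.57 ± 0.67. In LP rats Igf2 differed by -2.82 ± 0.38, H19 by -0.88 ± 0.40 and Nnat by -1.52 ± 0.58. Among early postnatal growth regulators, 0 of 11 tested genes were higher and 1 was lower at an unadjusted p under 0.05.

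Several enzymes that make fatty acids from acetyl-CoA were higher at day 28. In the fatty acid synthesis list, 6 of 20 tested genes were higher at an unadjusted p under 0.05 and 0 lower, against 4.65% of named genes higher, and 3 of the 6 were at least 2-fold higher, against 0.442%. Without NP4a, NP5a, NP5f or NP6f, or with all 12 arrays in the fit, 3 were higher, without NP6a 4 and without NP4f 8. The summed signal of the list overlapped, with 177.5 to 221.3 at day 21 and 146.3 to 381.1 at day 28. Acaca (probe at chr10:72499952-72500011 of rn4), acetyl-CoA carboxylase, the committed step, read -2.66, -3.11 and -2.75 at day 21 and -2.06, -1.28 and -1.55 at day 28. The days did not overlap, and the difference was 1.21 ± 0.23 (adjusted p = 0.241). Fasn, the fatty acid synthase, read 4.37, 3.82 and 4.74 and then 4.66, 6.15 and 5.73, a difference of 1.20 ± 0.42 (adjusted p = 0.443), with NP4f inside the day 21 range. Elovl6, which lengthens palmitate, had the same order of rats at day 28 (0.07, 2.01 and 1.45) and a difference of 1.21 ± 0.48 (adjusted p = 0.465).

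The other 3 were Acly, which supplies acetyl-CoA from citrate, at 0.89 ± 0.25, Thrsp, the Spot 14 protein of lipogenic tissue, at 0.66 ± 0.17, and Tkt, transketolase of the pentose phosphate pathway, at 0.64 ± 0.23. Each was higher on all 3 day 28 arrays, with adjusted p of 0.38, 0.344 and 0.448. Scd, the stearoyl-CoA desaturase, did not follow them. It read 6.19 to 6.56 at day 21 and 6.83 and 6.26 in NP5f and NP6f, but 1.47 in NP4f. The list's median difference was 0.18, and 0.31 without NP4f. The LP rats gave 0.83 ± 0.53 for Fasn, 0.68 ± 0.49 for Acaca and 1.16 ± 0.68 for Elovl6.

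The glucagon receptor had a large difference. Gcgr (probe at chr10:109929476-109929535 of rn4), which signals fasting to liver and fat, read -3.95, -4.14 and -3.62 at day 21 and -1.60, -0.93 and -1.72 at day 28. This 5.61-fold difference, 2.49 ± 0.25, was the largest of the 66 higher genes (adjusted p = 0.176 over 6 arrays and 0.0332 over 12), and LP rats gave 2.12 ± 0.34. Gys2, a glycogen synthase of liver and fat, read -0.74, -0.87 and -0.64 and then 1.52, 0.48 and 0.00 (difference 1.42 ± 0.37, adjusted p = 0.364). Slc27a1, a fatty acid transport protein, differed by 1.05 ± 0.33 (adjusted p = 0.412). For both, NP4f was the highest of the 3 day 28 rats, whereas for Fasn and Elovl6 it was the lowest. Gys2 and Slc27a1 are not among the listed genes and were named after their values were seen.

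Of 18 adipokine and adipocyte identity genes, 4 were higher and 0 lower at an unadjusted p under 0.05, against 4.65% and 3.71% of named genes, and 2 were higher without NP5a. Retn, resistin, read 5.41, 4.99 and 5.37 at day 21 and 6.26, 5.88 and 5.92 at day 28, a difference of 0.76 ± 0.17 (adjusted p = 0.304). Cfd, the complement factor adipsin, differed by 0.71 ± 0.22 (adjusted p = 0.4), with Nampt and Slc36a2, at 0.41 ± 0.16 and 0.53 ± 0.16, as the other genes. The general markers of fat cells did not differ beyond their spread, with Adipoq, adiponectin, at 0.12 ± 0.14 and Pparg, the master regulator of fat cells, at -0.06 ± 0.27. Lep, leptin, was -1.17 ± 0.52 (adjusted p = 0.504), with NP4f at -5.49 and the others at -3.63 and -3.58 against -3.34 to -2.86 at day 21. Fat storage and lipolysis genes (0 of 25 higher and 2 lower), fatty acid oxidation genes (0 of 29 either way) and genes of brown fat (0 of 13 either way) had few members at the unadjusted limit.

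**Figure D3:**
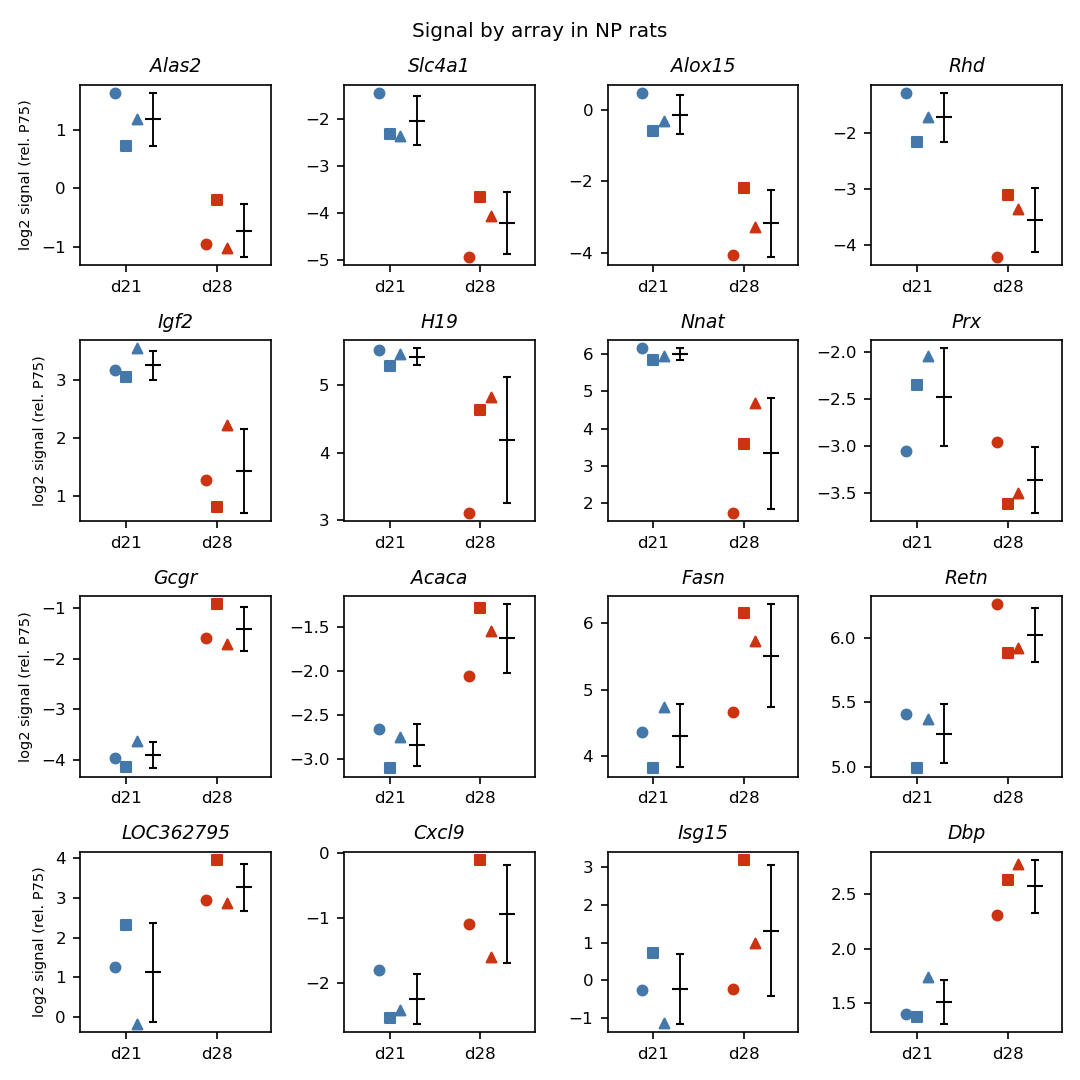
Log2 signal relative to the array's 75th percentile for 16 genes in the 3 NP rats of day 21 (blue) and the 3 of day 28 (red), with black bars giving mean and SD; circles, squares and triangles are NP4, NP5 and NP6. Red cell genes and Igf2 are lower, and Gcgr, Acaca, Retn and Dbp higher, on all 3 arrays of day 28, while Isg15 is high in NP5f, at 3.20.

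Several myelin genes of the peripheral nerve were lower at day 28. In the nerve and Schwann cell list 6 of 10 tested genes were lower and 0 higher at an unadjusted p under 0.05, against 3.71% and 4.65% of named genes, with a median difference of -0.51. The count changed when single rats were left out. It was 1 without NP5a or without NP6a, 2 without NP5f, 3 without NP6f, 4 without NP4a and 7 without NP4f. The list's median ran from -0.65 to -0.43 in these fits. Prx, periaxin, which Schwann cells need to keep their myelin, read -3.05, -2.35 and -2.04 at day 21 and -2.96, -3.62 and -3.50 at day 28, so that NP4f lay above NP4a, with a difference of -0.88 ± 0.30 (adjusted p = 0.436). Pmp22, a myelin membrane protein, differed by -0.43 ± 0.16 and was lower on all 3 arrays. Egfl8, at -0.53 ± 0.14, was below day 21 on all 3 arrays, and Nefm, a neurofilament of axons, was well above background on all 3 arrays of day 21 and on 1 of day 28 (-1.48 ± 0.58). Pmp2, a fatty acid binding protein of myelin, was not in the list and was named after its values were seen. It read -3.73, -3.47 and -3.20 and then -5.24, -6.37 and -4.69, a difference of -1.97 ± 0.42 (adjusted p = 0.276). Sox10, the transcription factor that marks Schwann cells, and some epithelial cells, was 0.25 ± 0.30. The summed signal of the list was 42.47 to 59.75 at day 21 and 30.02 to 37.06 at day 28. The LP rats gave -0.84 ± 0.28 for Prx and -1.80 ± 0.68 for Pmp2.

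Several immune genes were higher at day 28, some of them unevenly between rats. LOC362795, annotated as an immunoglobulin G heavy chain, read 1.25, 2.31 and -0.18 at day 21 and 2.96, 3.96 and 2.88 at day 28. The days did not overlap, and the difference was 2.14 ± 0.64 (adjusted p = 0.393). LOC362795 is not in the B cell list and was named after its values were seen. Immunoglobulin genes are a large family of like sequences, and how the probe divides them is uncertain. Cr2, the complement receptor of B cells, differed by 0.61 ± 0.14 (adjusted p = 0.294), while Cd79a, a part of the B cell receptor, differed by 0.32 ± 0.16 and Cd3e, of the T cell receptor complex, by 0.10 ± 0.15. Of 19 B cell genes 3 were higher and 0 lower at an unadjusted p under 0.05, and of 23 T cell genes 1 was higher, against 4.65% of named genes. Without NP6a or without NP5f, 1 B cell gene was higher, without NP4f or NP6f 2, and without NP4a 5. The summed signal of the B cell list was 15.9 to 19.92 at day 21 and 20.29 to 23.29 at day 28, and that of the T cell list 35.82 to 39.19 and 34.79 to 51.07. The part of lymph node tissue left in the samples was not tested.

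Of 26 tested chemokines, 6 were higher and 0 lower at an unadjusted p under 0.05, against 4.65% and 3.71% of named genes, with a median difference of 0.37. The count was 2 without NP6a and 2 with all 12 arrays in the fit. Cxcl9, which draws T cells and is induced by interferon gamma, read -1.79, -2.53 and -2.41 at day 21 and -1.09, -0.10 and -1.60 at day 28, a difference of 1.31 ± 0.40 (adjusted p = 0.402). Ccl2 and Ccl7, which draw monocytes, differed by 0.69 ± 0.23 and 0.81 ± 0.25. Fcgr3a, a receptor for the constant part of antibodies, differed by 1.39 ± 0.49 and was higher on all 3 arrays (adjusted p = 0.445). It is not among the listed genes and was named after its values were seen. RT1-Da, a rat class II chain, differed by 0.58 ± 0.13 (adjusted p = 0.285), and Cd74, the invariant chain, by 0.26 ± 0.16. In all, 3 of 10 class II genes were higher, and 0 with all 12 arrays in the fit, which shares the spread of the LP rats. The SE of RT1-Da was 0.13 over 6 arrays, and 0.42 for the LP difference in the 12-array fit. In LP rats the day 21 array of LP6a was low in B cell, T cell and class II genes, with list medians of -4.26, -4.96 and -2.44 against the NP rats of its day, so that the LP differences of these lists rest on it. Its low values also enter the spread of the 12-array fit.

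Interferon-response genes were higher on average in all 34 tested members, but only 4 passed an unadjusted p of 0.05, against 4.65% of named genes. The list's median was 1.44 in NP5f, 0.29 in NP6f and 0.15 in NP4f. Isg15, a ubiquitin-like protein induced by interferon, read -0.26, 0.73 and -1.15 at day 21 and -0.24, 3.20 and 0.98 at day 28 (difference 1.55 ± 0.91, adjusted p = 0.58), and without NP5f it was 0.60. Irf7 differed by 1.15 ± 0.64 and Mx1 by 1.10 ± 0.47, with NP5f the highest for both, and Ifi44, at 0.77 ± 0.25, was higher on all 3 arrays. Without NP4a or without NP6a, 0 of the 34 passed the unadjusted limit, without NP5f 2, without NP5a 7, without NP6f 8 and without NP4f 12. With all 12 arrays in the fit 1 passed. The list's median difference was 0.71, and 0.27 without NP5f. In LP rats 29 of the 34 were higher at an unadjusted p under 0.05, also with all 12 arrays in the fit. There LP4f and LP7f were the high rats of day 28, at 1.51 and 1.77, and LP6f was at 0.04.

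Calprotectin, the pair S100a8 and S100a9 that neutrophils carry in bulk, went the other way. S100a9 read -0.26, -0.16 and -0.20 at day 21 and -0.81, -1.29 and -1.90 at day 28, a difference of -1.13 ± 0.27 (adjusted p = 0.326). S100a8 differed by -1.07 ± 0.29 (adjusted p = 0.366). Both were at least 2-fold lower, against 0.456% of named genes, and the days did not overlap. Retnlg, a resistin-like protein of granulocytes, was -4.18 and -4.22 in NP5f and NP6f but -1.32 in NP4f, inside the day 21 range of -1.45 to -0.90, with a difference of -2.12 ± 0.78 (adjusted p = 0.448). The neutrophil and mast cell list as a whole had a median of -0.11, with 1 of 15 genes higher and 2 lower, and 5 lower without NP6a.

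Clock genes differed in both directions, with 4 of 19 higher and 2 lower at an unadjusted p under 0.05, against 4.65% and 3.71% of named genes. There were 2 higher without NP4a or without NP6f, and 1 with all 12 arrays in the fit. Dbp (probe at chr1:96178423-96178482 of rn4), a transcription factor whose level cycles over the day, read 1.40, 1.38 and 1.74 at day 21 and 2.31, 2.63 and 2.77 at day 28, a difference of 1.06 ± 0.17 (adjusted p = 0.192). Tef, its close relative, differed by 0.50 ± 0.18, Nr1d2, a repressor of the clock, by 0.47 ± 0.18, and Ciart, another repressor, by 0.62 ± 0.14. Nfil3, which binds the same sites as Dbp and represses them, read -1.67, -1.97 and -2.05 and then -2.55, -3.13 and -2.79, a difference of -0.93 ± 0.19 (adjusted p = 0.272). Cry1, a repressor, differed by -0.46 ± 0.14, and Bmal1, the activator at the centre of the loop, by -0.44 ± 0.28. Nr1d1 was 1.42 ± 0.60, with 1 day 21 rat, NP6a, at -2.00 between the day 28 values of -2.45 and -0.93.

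In LP rats Dbp was -0.53 ± 0.28, Tef -0.71 ± 0.23, Nr1d2 -0.50 ± 0.24 and Nfil3 0.20 ± 0.23. The day difference of Dbp differed between the diets by 1.59 and that of Nfil3 by -1.13, at unadjusted limma p of 0.00272 and 0.00621, and the adjusted p was 1 for both. The hour at which the rats were killed is not given in the sources used here.

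The defining markers of the epithelium were all present, and rats differed in them at both days. Krt18, a keratin of luminal cells, read 3.13, 3.89 and 2.94 at day 21 and 2.62, 3.81 and 3.88 at day 28, and Epcam, an adhesion molecule of epithelia, 0.51, 1.70 and 0.65 and then 0.43, 1.38 and 1.25. Their differences were 0.12 ± 0.41 and 0.07 ± 0.39, and Krt8 differed by -0.23 ± 0.53. Krt14, Krt5 and Tp63, which mark basal cells, differed by -0.07 ± 0.52, -0.18 ± 0.65 and 0.34 ± 0.17. Of 24 luminal genes 0 were higher and 1 lower at an unadjusted p under 0.05, and of 17 basal genes 0 either way. NP5a was the highest day 21 rat and NP4f the lowest day 28 rat in both lists, and without NP4f the medians were 0.48 and 0.34 in place of 0.21 and -0.07.

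Among hormone receptors, Esr1, the estrogen receptor, differed by -0.36 ± 0.24 and Prlr, the prolactin receptor, by -0.04 ± 0.41. Pgr, the progesterone receptor, was -7.66 in NP4f, not well above background, and -3.90 and -4.56 in the other day 28 rats, with a difference of 0.16 ± 0.99. In the list 0 of 12 genes passed the unadjusted limit, and in those of ErbB receptors (9 genes) and FGF signalling (16 genes) 0 did either.

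Among milk proteins, Csn3, kappa casein, which keeps casein micelles apart, was 4.75-fold higher. It read -3.38, -3.76 and -4.65 at day 21 and -2.88, -2.17 and 0.01 at day 28, a difference of 2.25 ± 0.76 (adjusted p = 0.431). The days did not overlap, and without NP6f, the highest rat, the difference was 1.40. Csn1s1, an alpha casein, read 0.45, 2.74 and 1.22 and then 0.90, 2.35 and 1.86 (0.23 ± 0.64), and Wap, the whey acidic protein, 0.97 ± 0.59. Csn1s1 was highest in NP5a at day 21 and NP5f at day 28, unlike Csn3. The other milk gene at the unadjusted limit, of 13 tested, was Glycam1, a mucin-like milk protein (0.63 ± 0.25). Of the list, 0 passed without NP6a or with all 12 arrays in the fit, and 1 without NP4f or NP5f. In LP rats Csn3 was 1.87 ± 1.24.

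Cell cycle genes had a median difference of -0.75, yet the arrays of day 28 stood at -1.99, -0.24 and -0.06, and without NP4f the median was -0.15. Top2a, a topoisomerase of dividing cells, read 0.41, -0.04 and -0.17 and then -2.62, -0.32 and -0.05 (-1.06 ± 0.67), and Ccnb1, cyclin B1, differed by -0.82 ± 0.62. Cdt1, a licensing factor of replication, was the only 1 of 39 lower at the unadjusted limit, which 3.71% of named genes passed as lower. It differed by -0.83 ± 0.30 and was below day 21 on all 3 arrays. Without any 1 of the day 21 rats 0 passed, and without NP6f 7 did, where the 2-fold genes also rose from 150 to 280.

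Matrix genes had a median difference of -0.32, and -0.12 without NP4f, which was at -0.997. Of 40 genes 5 were lower at an unadjusted p under 0.05, against 3.71% of named genes, with 3 without NP5a or without NP6a and 10 without NP6f. Eln, elastin, read 3.78, 3.94 and 3.87 at day 21 and 2.79, 3.27 and 3.54 at day 28, a difference of -0.66 ± 0.20 (adjusted p = 0.404). The others were Fbln5, a fibulin that binds elastin, at -0.79 ± 0.21, Fbn2, fibrillin 2, at -0.68 ± 0.26, Fbln2, another fibulin, at -0.55 ± 0.20, and Col8a1, a short-chain collagen, at -0.87 ± 0.22. The bulk collagens Col1a1 (0.07 ± 0.24) and Col3a1 (-0.08 ± 0.22) did not differ beyond their spread. Sfrp4, a secreted Wnt inhibitor, read 0.08, 0.41 and 0.56 and then -1.44, -0.73 and -0.01, a difference of -1.07 ± 0.36 (adjusted p = 0.431), and in LP rats it was -0.15 ± 0.37.

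Skeletal muscle genes, which mark muscle caught with the gland, had the lowest median, -1.79, against 0.02 over all named genes. All 27 tested were lower on average. Their summed signal was 19.6 to 162.1 at day 21 and 10.11 to 24.08 at day 28, so that the groups overlapped. Acta1, skeletal actin, read 0.93, -0.45 and 3.22 and then -1.90, -0.46 and -0.09, with NP6a the high rat (-2.05 ± 0.96, adjusted p = 0.515). Ckm, muscle creatine kinase, differed by -1.89 ± 0.86. Myh4, a fast myosin, was the only 1 at the unadjusted limit, at -2.82 ± 0.98, against 3.71% of named genes lower. Without NP5a, however, 20 of the 27 were lower at that limit, with normexp 10, and without NP4f or NP5f 0. The 2-fold genes also rose without NP5a, from 150 to 269. The share of all named genes at the unadjusted limit in these fits was not counted. Without NP6a the median was -0.90. The part of caught muscle in the other results was not tested.

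The difference of cytosolic ribosomal protein genes depended on the scaling. Relative to the 75th percentile, all 66 tested were higher on average, the median difference was 0.25, and 36 of them lay above all day 21 arrays, against 9.29% of named genes. At an unadjusted p under 0.05 there were 11 higher and 0 lower, with 0 at 2-fold. With quantile normalization, 40 of the 66 were higher on average, 6 lay above all day 21 arrays, the median was 0.02 and 0 passed the unadjusted limit. Also 0 passed without NP6a or without NP5f, 1 without NP5a and 7 without NP4a. More passed in other settings, with 27 over all 12 arrays, 23 with trend and robust estimation, 16 with normexp and 12 without NP6f. The added control RNAs, which hold no rat RNA, had a median difference of 0.22, and their part in the list's difference was not tested. In LP rats the list's median was 0.08.

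Other genes with low p values came from several functions. Aox3, an aldehyde oxidase, read -5.23, -5.08 and -4.73 at day 21 and -3.92, -3.51 and -3.33 at day 28, a difference of 1.43 ± 0.21 (adjusted p = 0.183). Gsta5, a glutathione transferase, differed by 1.04 ± 0.17 and was higher on all 3 arrays. Lefty2, a secreted antagonist of Nodal, differed by 1.17 ± 0.18 (adjusted p = 0.192, and 0.0444 over 12 arrays). Btnl5, a butyrophilin-like protein, differed by 1.25 ± 0.23.

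On the lower side, Mrgprg, a receptor of the Mas-related family, read -5.18, -5.25 and -5.32 and then -6.54, -6.27 and -6.51, close to background (-1.19 ± 0.13, adjusted p = 0.176). Slc6a13, a GABA transporter, differed by -1.11 ± 0.20, and Tent5c, an RNA polymerase that adds A tails, by -1.12 ± 0.18 (adjusted p = 0.226 and 0.192).

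Among the higher genes, Rpl23a-ps6, a copy of a ribosomal protein gene, differed by 1.34 ± 0.12 and passed in the 12-array fit (adjusted p = 0.0298). Genes not well above background at 1 of the days gave bounds only. Of the 14925 named genes, 3 were well above background on all day 28 and no day 21 arrays, led by LOC100359930 at least 2.35-fold higher. There were 34 with the reverse pattern, led by LOC682829 at least 2.82-fold lower. Each passed the filter only through the day at which it was high. The lowest signal well above background was -6.866 to -6.365 on the NP arrays of day 28 and -7.24 to -6.89 on those of day 21. The part of these limits in the counts was not tested.

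Other cell types had few genes at the unadjusted limit, which 4.65% of named genes passed as higher and 3.71% as lower. Of 23 macrophage genes 2 were higher, with a summed signal of 108.7 to 124.2 at day 21 and 131.9 to 171.9 at day 28. Of 22 endothelial genes 2 were lower, Eng (-0.58 ± 0.16) and Tie1 (-0.48 ± 0.16), both receptors of vessel walls. Of 16 plasma proteins made by the liver 2 were higher, Apoa2, an apolipoprotein (1.46 ± 0.28), and Alb, albumin, which read 1.19, 0.42 and 1.65 and then 2.96, 2.05 and 1.61. The albumin values of the days overlapped. Of 6 tested genes of epidermis and hair follicle 1, Sbsn, was lower (-1.06 ± 0.22), and the summed signal of that list overlapped between the days.

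The LP rats, on the same slides, were a separate set of animals for the same days, and day and slide coincide in them too. Of the 98 genes that were at least 2-fold different in NP rats and well above background on all 6 arrays, 87 (88.8%) had the same sign in LP rats and 51 of these had an unadjusted p under 0.05 there. Over all named genes 69.9% had the same sign. Alox15 (-3.33 ± 0.41), Slc4a1 (-2.26 ± 0.34) and Gcgr were among those with the same sign and Retnlg (0.62 ± 0.73) and Mrgprg (0.64 ± 0.55) among those with the opposite. The difference between the diets in the day 28 minus day 21 change passed an adjusted p of 0.05 in 0 of 22654 probes by limma, with the lowest at 0.497. At an unadjusted p under 0.05 there were 512 probes (2.26%), and 0 passed with a trend and robust estimation or with quantile normalization.

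**Figure D4:**
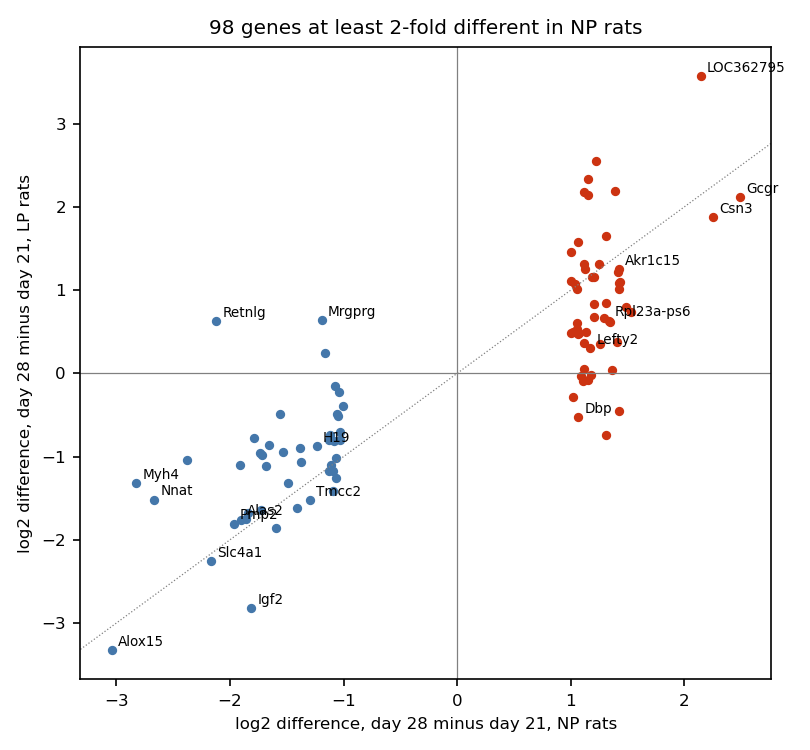
Log2 difference between day 28 and day 21 in NP rats (x axis) and in LP rats (y axis) for the 98 genes at least 2-fold different in NP rats and well above background on all 6 NP arrays, red where higher and blue where lower in NP rats; the dotted line marks equal differences. Of the 98 points 87 lie in the lower left or upper right, and Retnlg and Mrgprg lie in the upper left.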

How the data were processed

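The authors deposited, for each one-colour Agilent rat array, the output of Feature Extraction 10.7.3.1, whose processed intensity is background-subtracted and detrended within the array, with no scaling between arrays. They also deposited a signal matrix, each column a constant multiple of the scanner values (largest relative deviation 6.56e-05). RNA was extracted with Trizol and labelled with Cy3.

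Spots of controls (4259) were removed, as were those with an outlier flag (260 to 766 per NP array). From the log2 signal of each of the 58717 gene spots, that of the array's 75th percentile (1451.4 to 2369.6 before logs) was subtracted, and spots of a probe were averaged. No spot was saturated on the NP arrays (0), and arrays, unlike reads, have no depth, so that the number of arrays, 3 per day, limits the precision. A probe counted as well above background where at least 0.5 of its spots did, and 22654 of 30367 probes did so on at least 3 of the 6 NP arrays. The test, day 28 against day 21, used limma 3.58.1 (R 4.3.3, package data.table at version 1.17.8), with Benjamini-Hochberg adjustment over all of them. Where a probe had only outlier spots on an array, that value was missing (9 probes). Genes were named by the RefSeq accession (18380 probes), symbol (2188) or synonym (596), and otherwise by the array's own name (9203), and placed on rn4 as in the array annotation. Lists use the brightest probe of a gene. Genes of a list that were not named on the array were not analysed here.

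Named genes are the 12 lowest unadjusted p of the 2-fold genes in each direction, the first 3 of the main lists, and those with the largest bounds. List members at an unadjusted p under 0.05, and others where the text says so, were named after their values were seen. Of the first kind, those without a described function stand in the counts only. Members and lists were chosen with earlier results of these data known. A bound set each array of the dim day to the lowest signal well above background on it, or the probe's own where higher. All tests were two-sided. The 6 NP samples are different rats, and whether same-numbered rats share a litter is not given in the sources used here. Same-numbered rats were not treated as pairs. The fit was tested on simulated data. Alternatives were another normalization, background, filter or estimation, all 12 arrays, 1 probe a gene, a replicate block and leaving out each array. The error model with which the authors called genes could not be repeated. Some results for single genes are not reported here.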

Additional observations from a re-analysis of the deposited data

How the results depend on the processing

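At least 2-fold differences with an unadjusted p under 0.05 were found in 150 genes. The count was 86 with normexp background correction, 264 with no filter on dim probes, and 129 to 280 when 1 array was left out, 269 without NP5a and 280 without NP6f. The share of these genes that were higher ranged from 39.7% with quantile normalization to 61.4% with no filter. By limma, 64 probes passed an adjusted p of 0.05 in the fit of all 12 arrays and 0 in the 6-array fit and when any 1 array was left out. The cause of these changes was not tested. With replicate number as a block, 0 probes passed and 208 genes were 2-fold different, while 3 nerve genes and 13 muscle genes were lower and 17 interferon genes higher at an unadjusted p under 0.05, against 6, 1 and 4 without it. Deviations of same-numbered rats correlated at 0.0114, 0.165 and 0.106, and each rat correlated best with its own number except NP4f, whose correlation with NP6a was 0.0281. A share of called probes that were higher could not be computed, as 0 were called.

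Of 1690 gene values under the alternatives, 33 reversed and 1483 stayed on the same side of an unadjusted p of 0.05. Of 704 list medians, 675 moved by less than 1 SD, but part of these could not move. With no filter, trend and robust estimation, a replicate block, 1 probe a gene or the LP arrays added, medians equalled the main ones. The deposited values shifted all medians by nearly the same amount. In these settings unmoved medians and unreversed signs are no test, so the counts of 33 and 675 overstate how far the results were tested. With quantile normalization Adipoq was -0.14 and Col1a1 -0.16. With normexp, Col1a1 was -0.0319, Col3a1 0.0309, Krt14 0.00371, Csn1s1 -0.00669 and Prlr 0.0368. Leaving out 1 array gave ranges that crossed 0 for Dlk1 (-0.15 to 1.06), Scd (-2.55 to 0.13), Pparg (-0.29 to 0.16), Col1a1 (-0.13 to 0.32), Col3a1 (-0.23 to 0.17), Krt8 (-0.54 to 0.35), Krt18 (-0.11 to 0.52), Epcam (-0.15 to 0.44), Krt14 (-0.37 to 0.39), Krt5 (-0.52 to 0.47), Csn1s1 (-0.28 to 0.86), Pgr (-0.58 to 1.30) and Prlr (-0.27 to 0.40). The median over all probes was 0.03 with the 75th percentile, -0.003 with quantile normalization, 0.10 with normexp and 0.05 with the deposited values.

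Near background a signal is only a bound, which limits Epb42, Gata1, Nefm, Dlk1 and Pgr. With 3 rats a day, on 1 slide each, neither a slide effect nor small differences can be resolved.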

Other observations

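Probes without a gene name differed more often upward than named ones. Of 4904 tested probes with no name here, 741 (15.1%) were higher and 82 (1.67%) lower at day 28 at an unadjusted p under 0.05, with a median difference of 0.15. Of 17750 named probes, 4.47% were higher and 4.13% lower, with a median of 0.01. With quantile normalization the shares were 11.7% and 2.1% without a name, and 3.67% and 5.22% with one. In LP rats the medians were 0.05 and -0.03. Of the 48 probes higher in the 12-array fit, 38 had no name, against 1 of the 16 lower.

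Genes whose names mark them as pseudogenes of ribosomal protein genes, or as like them, were higher in part. Of 26 such genes, 19 lay above all day 21 arrays and 0 below, with a median difference of 0.37, and 0.20 in LP rats. With quantile normalization 14 lay above and 0 below, with a median of 0.20. Pseudogenes among them can be near-identical to the parent genes, so which gene gave the signal is uncertain.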
